A study of Homo sapiens with 6 samples.

Results

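The genes described here encode proteoglycans and a hyaluronan link protein, and were chosen by symbol from the 60617 genes measured in each library. The 10 genes are ACAN, VCAN, BCAN, HAPLN1, CSPG4, BGN, DCN, LUM, GPC1 and HSPG2. They were read in 6 RNA-seq libraries of the human melanoma cell line 1205Lu. Parental cells carrying the GAL4-ELK1 reporter (1205LuTR) were kept in DMSO, the drug's solvent, and gave 2 libraries. PBRT15 and PBRT16 (paradox breaker resistant tumor) were each grown out from 1 mouse tumor that had escaped PLX8394, a next-generation BRAF inhibitor, and each gave 2 libraries from cells kept in 500 nM PLX8394. All cells were grown in MCDB153 medium with serum, L-15 medium and insulin. Line and drug went together in this design, so the effect of the drug and the history of a line cannot be told apart. The sources do not say that the 2 libraries of a group were separate cultures, and p-values then measure only the spread between these libraries. Because ACAN was put in the group for its near loss in both lines, its values are given as a description, with no test.

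Proteoglycans are core proteins that carry long sulfated sugar chains, the glycosaminoglycans, and they fill the matrix and coat the cell surface. Aggrecan (ACAN), versican (VCAN) and brevican (BCAN) are large chondroitin sulfate proteoglycans that bind hyaluronan, a sugar polymer without a core protein, and HAPLN1 locks that bond in place. Biglycan (BGN), decorin (DCN) and lumican (LUM) are small leucine-rich proteoglycans of collagen-rich matrix. CSPG4 spans the membrane of melanoma cells and is a classical melanoma surface antigen, GPC1 is a heparan sulfate proteoglycan held at the surface by a lipid anchor, and perlecan (HSPG2) belongs to basement membranes.

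The deposited values are normalized expression levels with library totals from 27877963 to 29580752, and the number of reads behind each value is unknown, so no counting interval can be given. A gene was tested where its value reached 10 in at least 2 libraries, which left 16565 genes and 7 of the 10 members. ACAN, VCAN, CSPG4, BGN, DCN, GPC1 and HSPG2 passed. BCAN, HAPLN1 and LUM did not. DCN passed only through the PBRT libraries, and a gene near 0 in a group can in general pass only through the groups where it is high, which favours a difference. The calls given for PTPRZ1, PRELP, COL9A3 and ADAMTS4, and that of FMOD in PBRT15, against parental cells held when the filter was dropped (limma adjusted p = 0.00199 and 0.00156 for PTPRZ1, 0.00898 and 0.0114 for PRELP, 0.00519 and 0.0046 for COL9A3, 0.0218 for ADAMTS4 and 0.0065 for FMOD). The 2 libraries of a group correlated at 0.984 to 0.986 over the tested genes on the log2(value + 1) scale. SOX10, a master regulator of the melanocyte lineage, stood at 4360 and 4103 in parental cells and at 1.49 or less in all 4 PBRT libraries. The summed level of 10 melanocyte lineage markers ranged from 29549 to 33536 for parental libraries, from 883 to 1012 for PBRT15 and from 2220 to 2250 for PBRT16, and TYR was listed at 0 in both libraries of every group. The fall was carried by SOX10, S100B, S100A1 and MIA, whereas MITF, another regulator of the lineage, had values of 109 and 113 in parental cells, 824 and 927 for PBRT15, and 2209 and 2159 for PBRT16, and rose 7.80-fold and 19.5-fold (limma adjusted p = 0.000203 and 8.48e-05). The sum of 15 fibroblast markers was 9431 to 12150, 137415 to 147855 and 19139 to 25451 in the same order, with 9, 10 and 8 of the 15 reaching a value of 10 in at least 1 library. Of these, TCF21, DPT and MFAP5 were listed at 0 in both parental libraries, PI16 in both libraries of each PBRT line, and PDPN in both of PBRT15. THY1, COL1A1 and COL1A2 carried much of the PBRT15 sum, and COL1A1 and PDGFRB that of PBRT16. In cultures measured in bulk, fewer cells of a type and less RNA per cell cannot be told apart.

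To show the DNA just upstream of genes that behaved differently, the 250 bases before the RefSeq start site (GRCh38.p14) are given for 4 members, 5′ to 3′ on the gene's strand. ACAN was nearly lost in both lines, CSPG4 was higher in PBRT16 than in PBRT15, GPC1 was higher in PBRT15 than in parental cells, and HAPLN1 was listed at 0 throughout. Capitals mark the letters GGGCGG (a GC box) or ACAAAG or ACAATG (cores bound by SOX factors), each searched on both strands, so that CCGCCC and CTTTGT are matches on the other strand. The windows lie at chr15:88803186-88803435 on the plus strand for ACAN, chr15:75712849-75713098 on the minus strand for CSPG4, chr2:240435413-240435662 on the plus strand for GPC1 and chr5:83720856-83721105 on the minus strand for HAPLN1.
ACAN: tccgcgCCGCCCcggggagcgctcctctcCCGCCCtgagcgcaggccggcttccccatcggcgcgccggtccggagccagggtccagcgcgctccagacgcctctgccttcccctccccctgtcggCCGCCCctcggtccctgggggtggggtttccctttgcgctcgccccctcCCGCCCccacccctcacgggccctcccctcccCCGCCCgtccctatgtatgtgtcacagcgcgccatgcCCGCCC
CSPG4: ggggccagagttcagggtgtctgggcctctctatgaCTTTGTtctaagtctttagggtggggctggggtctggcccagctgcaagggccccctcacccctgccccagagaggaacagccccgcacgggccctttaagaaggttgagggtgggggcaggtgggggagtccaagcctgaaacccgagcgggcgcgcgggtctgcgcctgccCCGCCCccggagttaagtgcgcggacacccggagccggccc
GPC1: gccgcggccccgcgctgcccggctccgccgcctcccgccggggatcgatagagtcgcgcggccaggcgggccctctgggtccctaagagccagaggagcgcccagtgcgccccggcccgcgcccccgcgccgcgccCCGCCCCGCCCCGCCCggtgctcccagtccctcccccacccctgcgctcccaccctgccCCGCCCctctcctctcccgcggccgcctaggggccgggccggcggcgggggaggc
HAPLN1: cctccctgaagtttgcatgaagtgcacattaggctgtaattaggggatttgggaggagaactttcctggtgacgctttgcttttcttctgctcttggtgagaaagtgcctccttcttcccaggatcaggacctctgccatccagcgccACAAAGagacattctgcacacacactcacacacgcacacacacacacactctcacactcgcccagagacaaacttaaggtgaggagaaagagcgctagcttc

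The ACAN window was 77.2% G and C, against a median of 58% over 27305 promoters of the same length, and held 6 GC boxes and no SOX core. GPC1 held 4 GC boxes and no SOX core, CSPG4 held 1 of each, and HAPLN1 held 1 SOX core and no GC box. Of the 27305 promoters, 42.3% held a GC box and 21.4% a SOX core, so that a match of either kind was common. The set of promoters used here held 8 of the 10 members, and DCN and LUM were not in it. Of the 8, BGN and BCAN held 5 GC boxes each and no SOX core, VCAN 1 GC box and no SOX core, and HSPG2 8 GC boxes and 1 SOX core. A TATA box (TATAAA), found in 11.1% of all promoters, was in none of the 8 windows. The AP-1 motif (TGACTCA), found in 4.16% of promoters, and the TEAD motif (GGAATG), found in 11.9%, were not in them either.

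ACAN was among the most abundant of these genes in parental cells and was close to 0 in both resistant lines. ACAN (ENSG00000157766, chr15:88803436-88875353, plus strand, GRCh38) had values of 6706 and 5648 in the parental libraries. In PBRT15 its values were 11.99 and 2.31, and in PBRT16 they were 3.02 and 3.797. Every parental library was thus far above every PBRT library. The group mean was 6177 ± 748 (SD, n = 2) for parental cells, 7.15 ± 6.84 (SD, n = 2) for PBRT15 and 3.41 ± 0.549 (SD, n = 2) for PBRT16. The difference from parental cells was -9.87 on the log2(value + 1) scale in PBRT15 and -10.45 in PBRT16. ACAN stood 10th from the largest fall of the 16565 tested genes in each of these comparisons, which share their parental libraries. The 2 PBRT15 libraries differed from each other more than the lines did, and without replicate 1 of PBRT15 its difference from parental cells was -10.86, against -8.89 without replicate 2.

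VCAN, the close relative of ACAN and also a hyaluronan-binding proteoglycan, kept a high level in all 6 libraries. VCAN (ENSG00000038427, chr5:83471618-83582303, plus strand) had values of 8651 and 9290 in parental cells, 10891 and 10181 for PBRT15, and 6224 and 6609 for PBRT16. The libraries of the 3 groups did not overlap, with PBRT15 highest and PBRT16 lowest. Libraries of 2 groups failed to overlap for 74.9% of all tested genes in PBRT15 against parental cells. The share was 76.1% in PBRT16 against parental cells and 62.7% between the lines, so nothing is read from it for any member. The log2 fold change against parental cells was 0.23 (SE 0.12, adjusted p = 0.175 by limma) in PBRT15, with a 95% interval from -0.07 to 0.54. In PBRT16 it was -0.48 (SE 0.12, limma adjusted p = 0.0293), or 0.715 times the parental level. Between the lines VCAN was 0.609 times as high in PBRT16 as in PBRT15 (log2 fold change -0.72, SE 0.12, limma adjusted p = 0.0232). A gene is called differentially expressed here where the adjusted p is at most 0.05 and the change at least 2-fold, so VCAN was not called in any comparison.

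The remaining hyaluronan-binding members were at the bottom of the scale in every group. BCAN, a proteoglycan of brain matrix, had values of 5.32 and 5.21 in parental cells, 2.42 and 6.54 for PBRT15, and 4.67 and 1.17 for PBRT16. HAPLN1 was listed at 0 in all 6 libraries. Its relatives HAPLN2 and HAPLN4 and the brain proteoglycan NCAN stayed below 6 in each library. HAPLN3 was the one link protein gene above the filter, with values of 144 and 118 in parental cells, 72.5 and 109 for PBRT15, and 64.0 and 68.8 for PBRT16. HAPLN3 had log2 fold changes against parental cells of -0.55 (adjusted p = 0.126 by limma) and -0.96 (adjusted p = 0.0298), and was not called. Each link protein gene lies beside a proteoglycan gene of the aggrecan family: 1.94 kb separate ACAN from HAPLN3, 55.5 kb VCAN from HAPLN1, 15.7 kb BCAN from HAPLN2 and 2.52 kb NCAN from HAPLN4 (GENCODE v44).

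**Figure D1:**
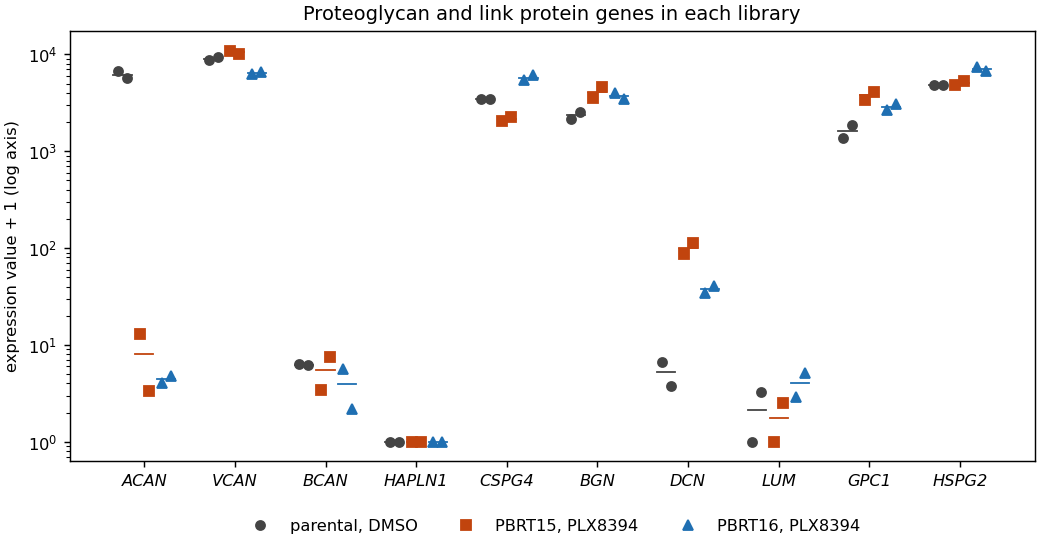
Expression value + 1 on a log axis for the 10 members in each of the 6 libraries (grey circles, parental in DMSO; orange squares, PBRT15; blue triangles, PBRT16; short lines, mean of 2 libraries). ACAN has a mean of 6177 in parental cells and lies at or below 11.99 in the 4 PBRT libraries, DCN is higher in the PBRT libraries than in parental cells, and VCAN, CSPG4, BGN, GPC1 and HSPG2 stay above 1000 everywhere.

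CSPG4, the melanoma surface proteoglycan, separated the resistant lines from each other. CSPG4 (ENSG00000173546, chr15:75674322-75712848, minus strand) had values of 3425 and 3434 in parental cells, 2067 and 2272 for PBRT15, and 5398 and 6111 for PBRT16. PBRT15 was lowest and PBRT16 highest, with no overlap between groups. The gene was 2.65-fold higher in PBRT16 than in PBRT15 (log2 fold change 1.41, 95% interval 1.08 to 1.73, limma adjusted p = 0.00597) and was called. Against parental cells the log2 fold change was -0.66 in PBRT15 (SE 0.13, limma adjusted p = 0.0148) and 0.74 in PBRT16 (SE 0.13, limma adjusted p = 0.0106), both below the 2-fold threshold. An opposite-strand transcript inside the gene, ENSG00000203392, stood between 9.16 and 26.4 in all libraries. The library kit kept strand, but the sources used here do not give the strand setting of the counting.

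The small leucine-rich proteoglycans differed in level by orders of magnitude. BGN (ENSG00000182492, chrX:153494980-153509546, plus strand) had values of 2140 and 2539 in parental cells, 3521 and 4587 for PBRT15, and 3965 and 3435 for PBRT16. All 4 PBRT libraries exceeded both parental libraries, and the lines overlapped each other. Its log2 fold change was 0.79 in PBRT15 (SE 0.19, limma adjusted p = 0.0293) and 0.66 in PBRT16 (SE 0.19, limma adjusted p = 0.0471), neither reaching 2-fold. Between the lines it was -0.12 (95% interval -0.62 to 0.37, limma adjusted p = 0.701). HAUS7, which overlaps BGN on the other strand, had values between 224 and 416.

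DCN, which binds collagen fibrils, had values of 5.66 and 2.77 in parental cells, 86.6 and 111 for PBRT15, and 33.6 and 39.2 for PBRT16. DCN (ENSG00000011465, chr12:91140484-91183217, minus strand) was thus low in parental cells and highest in PBRT15, with no overlap between the groups. The log2 fold change from parental cells was 4.30 in PBRT15 and 2.90 in PBRT16, and the limma adjusted p with no filter on low values was 0.00415 and 0.0103. The sizes rest on parental values near 0: a pseudocount of 5 gave 3.50 and 2.18. Leaving out parental replicate 1 or 2 gave 4.71 or 3.89 in PBRT15 and 3.31 or 2.49 in PBRT16. DCN was lower in PBRT16 than in PBRT15 by 2.65-fold (log2 fold change -1.41, SE 0.31, limma adjusted p = 0.0456). That last call was lost whichever of the 4 PBRT libraries was left out: the adjusted p was 0.115 without PBRT15 replicate 1, 0.153 without PBRT15 replicate 2, 0.165 without PBRT16 replicate 1 and 0.136 without PBRT16 replicate 2. The fibroblast marker sum given above was also higher in the lines, but its genes did not move as one in either line. For PBRT15, 6 of the 10 tested genes of that list were called higher and 1, PRRX1, lower (5.11-fold, limma adjusted p = 0.00207). Over all tested genes 13.8% were called higher there and 9.85% lower. COL1A1, the most abundant collagen gene of that list in PBRT15, had values of 13.9 and 32.7 in parental cells, 60705 and 67057 for PBRT15, and 9942 and 14432 for PBRT16. FAP and PRRX1, also on that list, were lower in PBRT16 than in parental cells (7.87-fold and 361-fold, limma adjusted p = 0.0393 and 7.84e-05), and COL1A2 had parental values of 14.03 and 23.2 against 19.9 and 15.4 in PBRT16. COL3A1, another fibroblast collagen, stayed between 11.1 and 35.7 in all libraries, and the part of other cell types in the DCN values was not tested. LUM, which lies 29.0 kb from DCN and shares its family, had values of 0 and 2.29 in parental cells, 0 and 1.53 for PBRT15, and 1.88 and 4.12 for PBRT16.

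The heparan sulfate proteoglycans of the group were at or above their parental mean in both lines. GPC1 (ENSG00000063660, chr2:240435663-240468076, plus strand) had values of 1377 and 1857 in parental cells, 3408 and 4129 for PBRT15, and 2681 and 3071 for PBRT16. The groups did not overlap, and parental cells were lowest. GPC1 was 2.34-fold higher in PBRT15 than in parental cells (log2 fold change 1.23, SE 0.20, limma adjusted p = 0.0097) and was called. In PBRT16 the difference was 1.79-fold (log2 fold change 0.84, limma adjusted p = 0.0292) and not called, although it was called without replicate 2 of the parental cells (log2 fold change 1.06, limma adjusted p = 0.0344). Between the lines the log2 fold change was -0.39 with a 95% interval from -0.91 to 0.14 (limma adjusted p = 0.261), so a difference between the GPC1 responses of PBRT15 and PBRT16 was not shown.

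HSPG2 (ENSG00000142798, chr1:21822244-21937310, minus strand) had values of 4779 and 4858 in parental cells, 4799 and 5301 for PBRT15, and 7472 and 6761 for PBRT16. PBRT15 overlapped parental cells, whereas both PBRT16 libraries lay above the other 4. Its log2 fold change was 0.07 in PBRT15 (95% interval -0.25 to 0.38, limma adjusted p = 0.694) and 0.56 in PBRT16 (SE 0.12, limma adjusted p = 0.0222), or 1.47-fold. Between the lines the log2 fold change was 0.49, with a 95% interval from 0.18 to 0.81 and a limma adjusted p of 0.0593.

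Of the 6 tested members other than ACAN, 2 (GPC1, and DCN, which passed the filter only through the PBRT libraries) were called higher and none lower in PBRT15 against parental cells, a comparison in which 23.6% of all tested genes were called (13.8% higher and 9.85% lower). In PBRT16 against parental cells 1 of the 6 (DCN) was called higher and none lower, with 23.1% of all genes called (13.1% higher and 9.95% lower). Between PBRT16 and PBRT15, CSPG4 was called higher and DCN lower, with 9.26% of all genes called (4.49% higher and 4.77% lower). The group was chosen on these contrasts, and nothing is read from the counts.

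**Figure D2:**
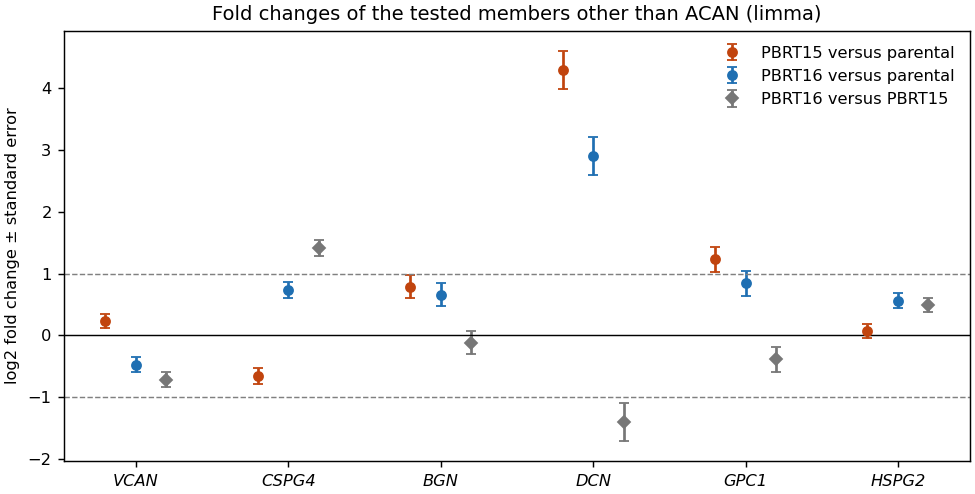
Log2 fold change (vertical axis, points) with its standard error (bars) from limma for the 6 tested members other than ACAN in the 3 comparisons; dashed lines mark a 2-fold change. DCN reaches 4.30 and 2.90 against parental cells, CSPG4 reaches 1.41 between the lines, and VCAN, BGN and HSPG2 stay inside the dashed lines.

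To set levels of different genes side by side, each value was divided by the length of the gene's canonical transcript in kb (GENCODE v44). This holds only if the deposited values grow with transcript length and that transcript is the main one. The sources used here settle neither, so the order, shares and ratios between genes below are conditional on both. In parental cells BGN led with 994 ± 120 per kb (SD, n = 2), followed by VCAN with 727 ± 36.6 and ACAN with 689 ± 83.4, and the spreads of VCAN and ACAN overlapped. GPC1 (435 ± 91.3) and CSPG4 (414 ± 0.809) also overlapped, and HSPG2 came next with 336 ± 3.90. In PBRT15 the order was BGN (1723 ± 320), GPC1 (1013 ± 137), VCAN (854 ± 40.6), HSPG2 (352 ± 24.7) and CSPG4 (262 ± 17.5), and GPC1 and VCAN overlapped in their spread. In PBRT16 it was BGN (1573 ± 159), GPC1 (773 ± 74.2), CSPG4 (694 ± 60.8), VCAN (520 ± 22.0) and HSPG2 (496 ± 35.1), of which VCAN overlapped HSPG2 and CSPG4 overlapped GPC1. DCN, though called higher in both lines, reached only 14.4 ± 2.50 per kb in PBRT15 and 5.31 ± 0.577 in PBRT16.

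ACAN made up 21.5% and 17.0% of the summed length-scaled level of the 10 members in the parental libraries and at most 0.0344% in any PBRT library. The sum itself was 3598 ± 169 per kb for parental cells, 4220 ± 462 for PBRT15 and 4064 ± 36.8 for PBRT16 (SD, n = 2 each). It was thus higher on average in the lines although ACAN was nearly gone. Without ACAN the sums were 2908 ± 253, 4220 ± 463 and 4063 ± 36.8. BGN and GPC1 together accounted for most of that difference in the PBRT15 sum, and BGN, GPC1, CSPG4 and HSPG2 in the PBRT16 sum. The level of ACAN per level of VCAN, both per kb, was 107% and 83.8% in the parental libraries, 0.152% and 0.0313% for PBRT15, and 0.0669% and 0.0792% for PBRT16.

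**Figure D3:**
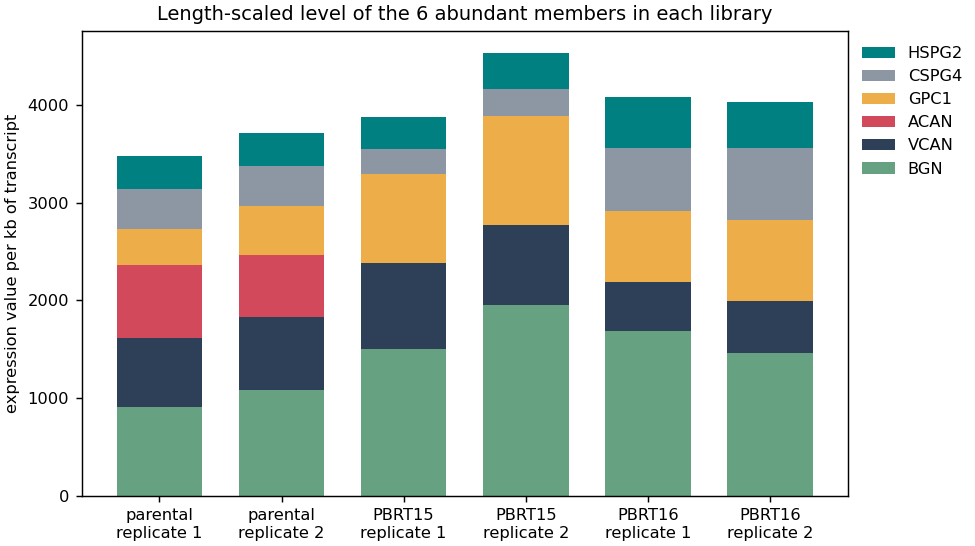
Stacked bars of expression value per kb of canonical transcript for the 6 abundant members in each library. The ACAN segment (red) fills 21.5% and 17.0% of the sum of all 10 members in the parental bars and is not visible in the PBRT bars, while the GPC1 (yellow) and BGN (green) segments are taller there.

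The genes whose pattern over the 6 libraries was most like that of ACAN were found by Euclidean distance between profiles of log2(value + 1) relative to the parental mean. EXTL1 was nearest (distance 1.56), followed by ITIH6 (1.72), S100A1 (1.74), FGFBP2 (2.17) and the lncRNA ENSG00000227297 (2.23). EXTL1 had values of 1426 and 1171 in parental cells and ITIH6 of 1155 and 689, and both were listed at 0 in all 4 PBRT libraries. S100A1, a calcium-binding protein, went from 14040 and 12928 in parental cells to 29.0 and 21.3 in PBRT15 and 8.30 and 5.87 in PBRT16. The pattern shared by these genes is the one for which ACAN was chosen.

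Around ACAN itself, 19 other tested genes had their start site within 1 Mb. Of these, 2 were called higher and 4 lower in PBRT15 against parental cells, and none higher and 3 lower in PBRT16, with median log2 fold changes of -0.31 and -0.36. Over all tested genes 13.8% were called higher and 9.85% lower in PBRT15, and 13.1% and 9.95% in PBRT16. Nothing is read from these counts. The genes named next were picked after their values were seen. The lncRNA ENSG00000259676, whose start lies 4702 bases upstream of that of ACAN, had values of 43.6 and 37.7 in parental cells and was listed at 0 in all 4 PBRT libraries. AEN, a p53-induced nuclease 182.1 kb upstream, had values of 2277 and 2532 in parental cells, 1236 and 1264 for PBRT15, and 618 and 549 for PBRT16. MFGE8, a secreted phosphatidylserine-binding protein 110 kb downstream, had values of 1168 and 1124 in parental cells, 2312 and 2743 for PBRT15, and 2241 and 2257 for PBRT16. The PBRT values of AEN thus lay below the parental ones and those of MFGE8 above them. AEN was not called in PBRT15 (log2 fold change -0.94), nor MFGE8 in PBRT16 (0.97). Whether direction went with the side of ACAN was not tested. ABHD2, 284 kb downstream, had values of 11930 and 12880 in parental cells, 4104 and 3433 for PBRT15, and 8638 and 7823 for PBRT16.

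**Figure D4:**
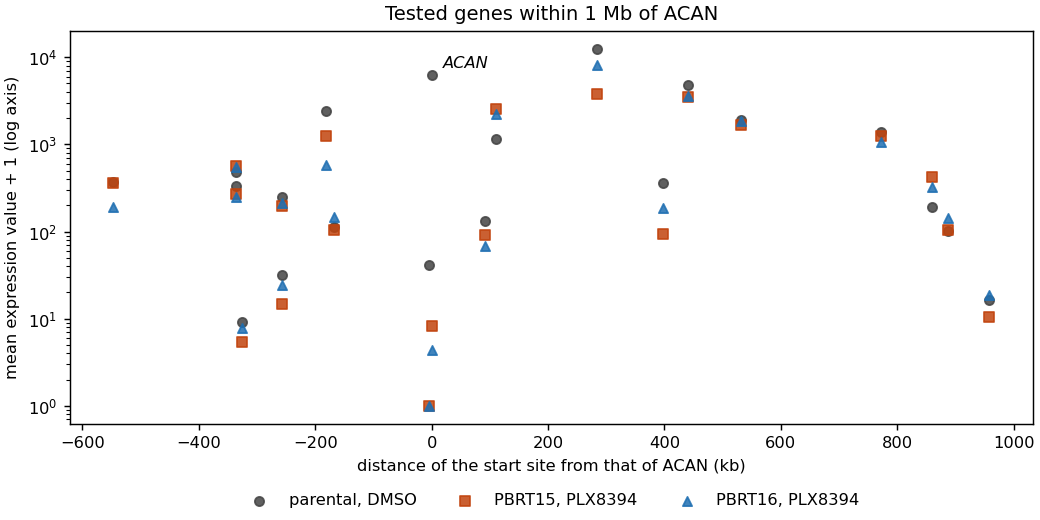
Mean expression value + 1 (log axis, mean of 2 libraries) of ACAN and the 19 other tested genes within 1 Mb, by distance of the start site from that of ACAN in kb; symbols mark the groups. ACAN drops from 6177 to 7.15 and 3.41, the gene just upstream of it is listed at 0 in both lines, and most other genes have overlapping or nearby symbols.

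Several genes that regulate or accompany aggrecan in cartilage were lower in the lines. Of 18 cartilage matrix and regulator genes, 10 were tested, of which 2 were called higher and 6 lower in PBRT15 and 2 higher and 7 lower in PBRT16. The median log2 fold changes were -2.09 and -2.45, against -0.005 and -0.001 for all tested genes. Over all tested genes 13.8% and 13.1% were called higher and 9.85% and 9.95% lower. Fewer genes of the list were called lower with either parental library left out. COL9A1, COL9A3 and MATN1 were then not tested, since they passed the filter only through the parental libraries. Some genes still tested also lost a call, COL9A2 in PBRT15 among them. SOX9, the transcription factor that drives ACAN in cartilage, had values of 8030 and 6364 in parental cells, 2199 and 2072 for PBRT15, and 764 and 1094 for PBRT16. SOX9 fell 3.35-fold in PBRT15 (limma adjusted p = 0.00461) and 7.81-fold in PBRT16 (limma adjusted p = 0.00106). Its cartilage partner SOX5 had values of 2262 and 1766, then 244 and 354, then 66.4 and 89.8 in the same order, a fall of 6.78-fold and 25.6-fold (limma adjusted p = 0.0021 and 0.000502). SOX6, the other partner, stayed between 629 and 860 in all 6 libraries.

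Among the cartilage matrix genes, COL9A3, a chain of type IX collagen, had values of 1339 and 1416 in parental cells, 2.95 and 7.44 for PBRT15, and 1.36 and 6.50 for PBRT16. It fell, with a log2 fold change of -7.90 in PBRT15 (limma adjusted p = 0.0013) and -8.35 in PBRT16 (limma adjusted p = 0.00113), the latter -7.52 without PBRT16 replicate 1 and -9.19 without PBRT16 replicate 2. COL2A1, the main cartilage collagen, did not exceed 10.03 in any library and was not tested. The matrilins MATN2 and MATN3, matrix adaptor proteins, went the other way. MATN3 had values of 109 and 85.3 in parental cells, 797 and 784 for PBRT15, and 808 and 638 for PBRT16, a rise of 8.13-fold and 7.38-fold (limma adjusted p = 0.000632 and 0.000707). MATN2 rose 9-fold in PBRT15 and 34.5-fold in PBRT16 (limma adjusted p = 0.00144 and 0.000417).

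**Figure D5:**
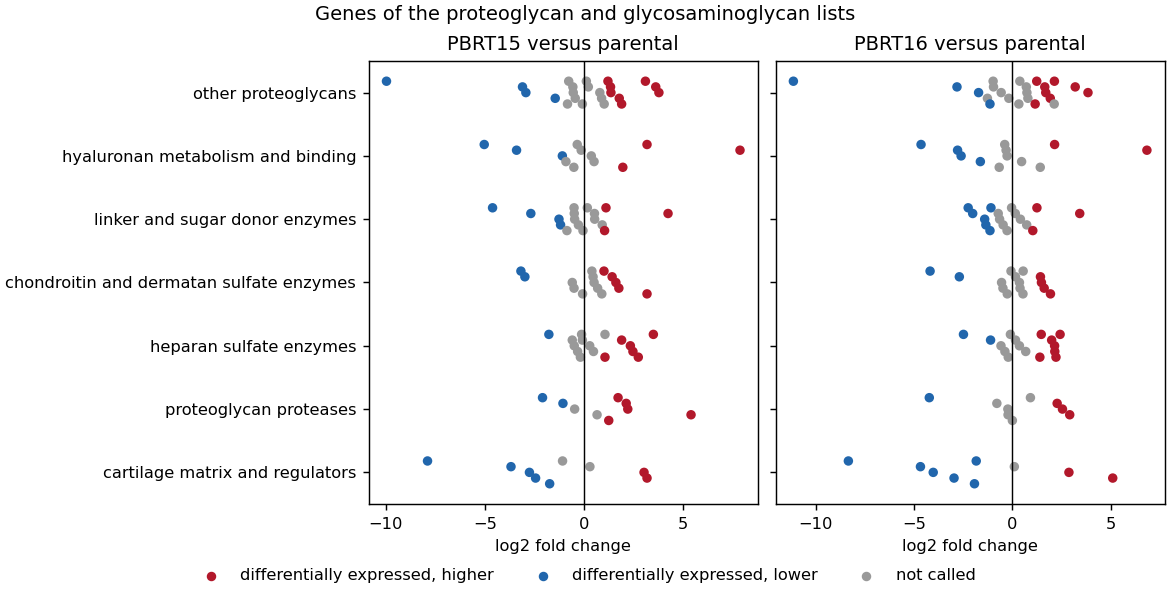
Log2 fold change against parental cells (horizontal axis) of each tested gene in 7 lists, for PBRT15 on the left and PBRT16 on the right; red and blue points were called higher and lower, grey points were not called, and genes listed at 0 in both libraries of a group are left out. Every list has calls on both sides, and the cartilage list has 6 and 7 blue points against 2 red ones, counting those left out.

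Of 39 further proteoglycan and link protein genes, 23 were tested, and 8 were called higher and 4 lower in each comparison with parental cells. Over all tested genes 13.8% were called higher and 9.85% lower in PBRT15, and 13.1% and 9.95% in PBRT16. The counts of this list and of those below stand beside these shares, and nothing is read from them. The largest fall was that of PTPRZ1, a receptor-type phosphatase whose extracellular part carries chondroitin sulfate. PTPRZ1 had values of 7152 and 5906 in parental cells, 3.96 and 7.44 for PBRT15, and 3.60 and 0.773 for PBRT16, and fell, with log2 fold changes of -9.97 and -11.15 (limma adjusted p = 0.000394 and 0.000301). In PBRT16 the value was -11.84 without PBRT16 replicate 1 and -10.46 without PBRT16 replicate 2. PRELP, a small leucine-rich protein, was 8.62-fold lower in PBRT15 and 7.06-fold lower in PBRT16 (limma adjusted p = 0.00235 and 0.00314). COL18A1, a basement membrane collagen that carries heparan sulfate, had values of 998 and 1093 in parental cells, 8988 and 8762 for PBRT15, and 3461 and 3316 for PBRT16. It rose 8.49-fold and 3.24-fold (limma adjusted p = 0.000172 and 0.000779). FMOD, a small leucine-rich proteoglycan related to LUM, had values of 2.79 and 5.00 in parental cells, 54.0 and 76.2 for PBRT15, and 0.780 and 1.62 for PBRT16. It therefore rose in PBRT15 (limma adjusted p = 0.00163), whereas both PBRT16 libraries lay below the parental ones. FMOD is 1 of the 4 genes called lower in PBRT16, from values near 0. That call was lost with no filter (limma adjusted p = 0.11). GPC6, a relative of GPC1, was 3.30-fold lower in PBRT16 than in parental cells (limma adjusted p = 0.00181), with a log2 fold change of 0.79 in PBRT15 (limma adjusted p = 0.0173), below 2-fold. The syndecan SDC4, a heparan sulfate proteoglycan of the cell surface, had values of 13771 and 15488 in parental cells, 9493 and 10198 for PBRT15, and 24769 and 25588 for PBRT16. It was 2.56-fold higher in PBRT16 than in PBRT15 (limma adjusted p = 0.00606). SPOCK1, a testican, was 3.05-fold higher in PBRT16 than in PBRT15 (limma adjusted p = 0.00858).

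Of 20 genes that make, cleave or bind hyaluronan, 12 were tested, with 3 called higher and 3 lower in PBRT15 and 2 higher and 4 lower in PBRT16. CEMIP, which takes part in breaking down hyaluronan, had values of 136 and 349 in parental cells, 63121 and 41026 for PBRT15, and 27283 and 23303 for PBRT16. CEMIP rose 233-fold and 115-fold (limma adjusted p = 0.000647 and 0.000934), or by log2 fold changes of 7.86 and 6.85. These were 7.18 and 6.17 without parental replicate 1, and 8.54 and 7.53 without parental replicate 2. CEMIP2, of the same list, had values of 6855 and 9017 in parental cells, 3856 and 3486 for PBRT15, and 2261 and 2859 for PBRT16. It was 2.14-fold and 3.09-fold lower (limma adjusted p = 0.013 and 0.00422). The PBRT15 call of CEMIP2 was lost without parental replicate 2 or PBRT15 replicate 2. CD44, the main hyaluronan receptor, had values of 52625 and 55881 in parental cells, 224465 and 195273 for PBRT15, and 244359 and 235617 for PBRT16. CD44 rose 3.86-fold and 4.42-fold (limma adjusted p = 0.000706 and 0.000544). ITIH5, which is related to the heavy chains that link to hyaluronan, was 32.9-fold lower in PBRT15 and 25.2-fold lower in PBRT16 (limma adjusted p = 6.12e-05 and 6.85e-05), from 10926 and 11728 in parental cells. HAS2, a hyaluronan synthase, had values of 505 and 316 in parental cells, 385 and 680 for PBRT15, and 59.6 and 70.4 for PBRT16, and was 6.09-fold lower in PBRT16 (limma adjusted p = 0.00579). The parental and PBRT15 libraries of HAS2 overlapped.

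All 17 genes for the linker between core protein and chain and for sugar and sulfate donors were tested, of which 3 were called higher and 4 lower in PBRT15 and 3 higher and 6 lower in PBRT16. PAPSS2, which makes the sulfate donor, had values of 316 and 254 in parental cells, 5728 and 5006 for PBRT15, and 2938 and 3187 for PBRT16, a rise of 18.8-fold and 10.8-fold (limma adjusted p = 0.000176 and 0.000308). SLC26A2, the sulfate transporter that supplies this step, had values of 8545 and 7611, then 1227 and 1279, then 1732 and 1656, a fall of 6.43-fold and 4.76-fold (limma adjusted p = 0.000272 and 0.000434). PAPSS1, which makes the same donor, had values of 3456 and 2906 in parental cells, 1649 and 1816 for PBRT15, and 1531 and 1448 for PBRT16. Its log2 fold change was -0.87 in PBRT15 (limma adjusted p = 0.009) and -1.09 in PBRT16 (limma adjusted p = 0.00478), the latter called lower, but not without parental replicate 1, where it was -0.96. PXYLP1, a phosphatase that acts on the xylose of the linker, was 24.6-fold lower in PBRT15 and 4.05-fold lower in PBRT16 (limma adjusted p = 0.000263 and 0.0024). XYLT1, which adds that xylose, had values of 2969 and 1982 in parental cells, 5279 and 4627 for PBRT15, and 1012 and 1188 for PBRT16, with a fold of 2.04 in PBRT15 and a 2.21-fold lower level in PBRT16. Both differences were called, but the first was lost with scaling to the library total, no filter, or without parental replicate 2 or either PBRT15 library, and the second with no filter or without parental replicate 1 or either PBRT16 library. With a library left out, the log2 fold change of XYLT1 ranged from 0.73 to 1.32 in PBRT15 and from -1.44 to -0.85 in PBRT16.

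Of 16 chondroitin and dermatan sulfate enzymes, 15 were tested, with 5 called higher and 2 lower in PBRT15 and 4 higher and 2 lower in PBRT16. The 2 that fell in each line were CHST11 and CSGALNACT1. CHST11, which sulfates the 4 position, had values of 9762 and 8026 in parental cells, 823 and 1135 for PBRT15, and 489 and 476 for PBRT16, a fall of 9.15-fold and 18.3-fold (limma adjusted p = 0.000668 and 0.000334). CSGALNACT1, which starts the chondroitin chain, fell 7.95-fold and 6.51-fold (limma adjusted p = 0.00168 and 0.00225). DSE, the epimerase that turns chondroitin into dermatan sulfate, had values of 555 and 525 in parental cells, 1813 and 1830 for PBRT15, and 1423 and 1603 for PBRT16, a rise of 3.37-fold and 2.79-fold (limma adjusted p = 0.000825 and 0.0013). CHST12, another 4-O-sulfotransferase, had values of 380 and 396 in parental cells, 934 and 1146 for PBRT15, and 1123 and 976 for PBRT16, a rise of 2.66-fold and 2.70-fold (limma adjusted p = 0.00298 and 0.00291). CHST15, which adds a further sulfate, rose 9.02-fold and 3.85-fold (limma adjusted p = 0.000645 and 0.00243).

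Of 25 heparan sulfate enzymes, 17 were tested, with 6 called higher and 2 lower in PBRT15 and 7 higher and 3 lower in PBRT16. The sulfotransferase HS6ST1 had values of 746 and 815 in parental cells, 4022 and 3825 for PBRT15, and 3883 and 3138 for PBRT16, a rise of 5.03-fold and 4.47-fold (limma adjusted p = 0.0007 and 0.000857). HS3ST3B1, which adds a rarer sulfate, rose 11.3-fold and 5.40-fold (limma adjusted p = 0.000378 and 0.000974). SULF2, which removes sulfate outside the cell, rose 5.51-fold and 2.64-fold (limma adjusted p = 0.00187 and 0.00955). EXTL1, a member of the exostosin family of glycosyltransferases, was the only tested gene of this list at 0 in all 4 PBRT libraries, with the parental values given above, and no fold is given for it.

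Of 11 genes for proteases that cut proteoglycans and their inhibitor, 9 were tested, with 5 called higher and 2 lower in PBRT15 and 3 higher and 1 lower in PBRT16. With either PBRT15 library left out, ADAMTS4 no longer passed the filter and was not tested. ADAMTS5 and TIMP3 were still tested and lost their calls in PBRT15. ADAMTS4, an aggrecanase, had values of 0 and 2.42 in parental cells, 62.1 and 94.3 for PBRT15, and 2.43 and 0 for PBRT16, and was called higher in PBRT15 (log2 fold change 5.39, limma adjusted p = 0.00787), with 4.50 without parental replicate 1 and 6.28 without parental replicate 2. ADAMTS5, the other main aggrecanase, had values of 4.32 and 4.40 in parental cells, 10.1 and 13.5 for PBRT15, and 34.9 and 17.97 for PBRT16, and rose 4.87-fold in PBRT16 (limma adjusted p = 0.00684). In PBRT15 the fold of ADAMTS5 was 2.36 (limma adjusted p = 0.0393), a call lost with no filter (adjusted p = 0.0917) and without any one parental or PBRT15 library, where the log2 fold change was 1.05 to 1.43. ADAMTS15, which cleaves versican and aggrecan, rose 4.35-fold and 7.58-fold (limma adjusted p = 0.00113 and 0.000464). ADAMTS9, another versican-cleaving protease, had values of 3871 and 3637 in parental cells, 661 and 1163 for PBRT15, and 203 and 195 for PBRT16, a fall of 4.28-fold and 18.8-fold (limma adjusted p = 0.00528 and 0.000746).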

How the data were processed

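For human melanoma cells, 6 RNA-seq libraries (2 per group) were made with a stranded mRNA kit, aligned with STAR and quantified with RSEM on GENCODE annotation of GRCh38. The authors deposited 1 normalized signal value per gene and library. The sources used here do not give their normalization, no value above 0 was whole, and reads could not be recovered, so that depth is unknown. From these values log2(value + 1) was fitted over all 6 libraries with limma 3.58.1 (R 4.3.3), without a block, for the 16565 of 60617 genes (45 pseudoautosomal copies left out) with a value of at least 10 in at least 2 libraries, with Benjamini-Hochberg adjustment over all tested genes. Symbols came from GENCODE v44, which matched 60357 IDs without version. A call needed a 2-fold change or more and an adjusted p of 0.05 or less. With 3 residual degrees of freedom against 1.89 for the spread shared across genes, precision rests more on each gene's own libraries. The fit was tested on simulated data.

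Members and lists were chosen with earlier results of these data known. The text names every member, HAPLN2, HAPLN3, HAPLN4, NCAN, SOX9 and SOX10. From each list it draws on the 3 largest called rises and falls per comparison with parental cells and the 2 largest between the lines. It also names the 5 genes nearest ACAN in profile. Some genes given as context fall outside this rule and were picked after their values were seen: SOX6, COL2A1, COL1A1, COL3A1, TYR, PI16, PDPN, TCF21, DPT, MFAP5, THY1, COL1A2, PDGFRB, FAP, PRRX1, MITF, S100B, MIA, SDC4, SPOCK1, PAPSS1, CHST12 and the opposite-strand transcripts. Alternatives were other scalings, pseudocounts, filters, fits and fold thresholds, a replicate block and each library left out. Replicate numbers did not pair the samples.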

Additional observations from a re-analysis of the deposited data

Results flagged for a closer look

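The resistant lines differed from each other, by the limma comparison of PBRT16 with PBRT15, in 24 genes of the group and of the related lists. Tested were 6 members other than ACAN, and 23 other proteoglycan, 12 hyaluronan, 17 linker and 15 chondroitin genes. The heparan sulfate, protease and cartilage lists added 17, 9 and 10. Over all tested genes 9.26% were called in this comparison, and nothing is read from the count. Each value here is the log2 fold change of PBRT16 against PBRT15 on the log2(value + 1) scale, and each of the 24 genes met both limits for a call. Both lines share the parental libraries as their reference, so that the comparison between lines is also the test of whether their differences from parental cells were unequal.

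Among the members these were CSPG4 (1.41, higher in PBRT16) and DCN (-1.41, lower in PBRT16), and the DCN call was lost without any one of the PBRT libraries, as the report gives. Of the other proteoglycans, ASPN (2.91), a small leucine-rich protein, and the testicans SPOCK2 (1.95) and SPOCK1 (1.61) and the syndecan SDC4 (1.36) were higher in PBRT16, and COL18A1 (-1.39), FMOD (-4.91) and GPC6 (-2.51) were lower. Of the hyaluronan genes, the synthase HAS2 (-2.96) and the hyaluronidase HYAL1 (-1.17) were lower. Of the linker genes, XYLT1 (-2.17) was lower and PXYLP1 (2.6) higher.

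The sulfotransferases CHST11 (-1.0), CHST15 (-1.23) and HS3ST3B1 (-1.06) and the sulfatase SULF2 (-1.06) were lower in PBRT16, and the dermatan sulfate 2-O-sulfotransferase UST (1.12) was higher. Of the proteases, ADAMTS4 (-5.39) and ADAMTS9 (-2.13) were lower. Of the cartilage genes, SOX5 (-1.91) and SOX9 (-1.22) were lower, and MATN1 (1.76) and MATN2 (1.94) were higher. The MATN1 values of both lines lay below the parental ones and below the filter minimum of 10. MATN1 passed the filter only through the parental libraries, so its difference between the lines rests on values near 0. Its call was lost with no filter (limma adjusted p = 0.0645). Of the 22 list genes, 16 lost the call under at least 1 alternative, mostly when 1 library was left out, and none changed direction. COL18A1, FMOD, GPC6, PXYLP1, SDC4 and SPOCK1 kept theirs under every alternative in which they were tested. The value for ASPN was 2.03 without PBRT15 replicate 1 and 3.79 without PBRT15 replicate 2, and that for ADAMTS4 was -6.28 without PBRT16 replicate 1 and -4.50 without PBRT16 replicate 2. FMOD and ADAMTS4 passed the filter only through PBRT15, and ASPN only through PBRT16, which favours a difference between the lines. With no filter the limma adjusted p was 0.0118 for FMOD and 0.0493 for ADAMTS4. For ASPN it was 0.0994, and the call was lost.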

How the results depend on the processing

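Of the differences of single tested members from parental cells or between lines under each alternative, 318 kept their direction and their side of the threshold, 9 lost and 1 gained a call, and 2 reversed. The reversals were small values near 0: without PBRT15 replicate 2, HSPG2 in PBRT15 against parental cells was -0.01 and BGN in PBRT16 against PBRT15 was 0.07 (the ranges with a library left out were -0.01 to 0.14 and -0.31 to 0.07). The untested ACAN difference was -9.52 in PBRT16 with a pseudocount of 5, and between the lines it was 0.41 without PBRT15 replicate 1 and -1.56 without PBRT15 replicate 2. The 9 lost calls were all of DCN between the lines: 1 member in place of 2 was called there with upper-quartile scaling, scaling to the library total, a pseudocount of 0.5, no filter or a replicate block (adjusted p of 0.0501 to 0.107), and 1 to 2 with a library left out. Without parental replicate 2, 2 members were called in PBRT16 against parental cells, and leaving out a library gave 1 to 2 there.

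With no fold threshold, 4 members were called for PBRT15 and 6 for PBRT16 (each set against parental cells), and 6800, 6643 and 2612 genes in all for PBRT15, PBRT16 and the comparison of lines. Leaving out a library of either line cut the 1534 genes called between the lines to 776 (PBRT15 replicate 1), 1017 (PBRT15 replicate 2), 782 (PBRT16 replicate 1) and 798 (PBRT16 replicate 2), and leaving out a parental library gave up to 1300. The cause was not tested, other than that a group then holds 1 library, assumed to vary like the others. Deviations of equally numbered libraries correlated at 0.020, 0.036 and 0.135, so the numbers were not taken as pairs. The replicate block gave 3850, 3798 and 1355 called genes against 3914, 3826 and 1534 without it, and changed no call of a tested member except DCN between the lines. Another scaling moved the median of all genes to -0.064 at most. Of the genes drawn from the lists, 30 of 38 calls for PBRT15 and 33 of 37 for PBRT16 (each set against parental cells) held under every alternative in which the gene was tested. No direction changed. Some of these genes, such as PTPRZ1 and COL9A3, were tested under only 15 of the 17 alternatives. The number of reads is unknown, so values near 0 carry an error that cannot be stated.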
